A study of Mus musculus with 10 samples.

Results

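The Mir379-Mir410 cluster is a run of microRNA genes on mouse chromosome 12, at chr12:109709060-109743795 on the plus strand of GRCm38.p6, a stretch of 34.736 kb. Members were taken by name, from Mir379 to Mir410. The 40 listed names stand for 38 genes, since Mir299 and Mir496 are older names of Mir299a and Mir496a. Of these, 32 had a probe set naming them alone and are the measured members, out of 17919 genes measured that way. Mir134, Mir485, Mir412, Mir369 and Mir410 lay only on 3 probe sets that also name the noncoding gene Mirg, and Mir3072 had no probe set. By position Mir3072 lies beyond Mir410 and outside that stretch, its start 38.818 kb from that of Mir379. It was listed all the same and counts in the sequence totals below. The cluster was picked because its precursors were high in the knockout lungs of this very data set, so the differences between knockout and control given for its members are descriptions and carry no test.

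The series compared whole lungs of 5 Hdac3 knockout embryos (Shhcre:Hdac3fl/fl) with those of 5 Shhcre control embryos, all at E18.5, late in gestation, on a mixed C57BL/6, 129X1 and 129S6 background, with 1 Affymetrix gene array per lung. Hdac3 encodes a histone deacetylase, and Shh-Cre recombines floxed genes in the lung epithelium, so the mesenchymal, endothelial and blood cells of each lung kept the gene. Mothers were Hdac3 fl/fl and fathers Hdac3 fl/+ ShhCre. No label states the Hdac3 alleles of the controls, and a Cre-carrying control of such parents would be Hdac3 fl/+. In a whole lung, a change in the number of cells of a type and a change in RNA per cell cannot be told apart. Reverse transcription of 100 ng total RNA started from a poly(T) primer, per the labels' protocols, so a precursor's probe set reads polyadenylated RNA that contains the hairpin and not the mature microRNA.

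The cluster belongs to the imprinted Dlk1-Dio3 domain. There the maternal chromosome expresses the noncoding RNAs Meg3, Rian and Mirg together with the microRNAs and small nucleolar RNAs embedded in them, while the paternal chromosome expresses the protein-coding genes Dlk1, Rtl1 and Dio3. The hairpins are cut out of long polycistronic transcripts by Drosha and then Dicer1. The mature microRNAs are best known from the brain, where in rat neurons the transcription factor Mef2 drives the cluster, and mice lacking the cluster adapt poorly to the metabolic demands of birth.

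RefSeq (GRCm38.p6) held hairpins for 36 of the 38 genes and 71 mature sequences with 65 distinct seeds. It held only 1 mature sequence for each of Mir376c, Mir487b, Mir539, Mir485 and Mir453, so the counts of seeds cover only the sequences it held. A seed is bases 2 to 8 of the mature sequence, the part that pairs with a target messenger RNA. The arms below are shown because 6 seeds are shared between genes of the cluster, on 12 arms of 11 genes, so that these precursors yield mature microRNAs with the same pairing bases. Capitals mark the seed, and sequences run 5′ to 3′.
mmu-miR-379-3p: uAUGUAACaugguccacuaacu
mmu-miR-411-3p: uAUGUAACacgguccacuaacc
mmu-miR-379-5p: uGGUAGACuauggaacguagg
mmu-miR-1193-5p: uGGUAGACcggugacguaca
mmu-miR-1197-5p: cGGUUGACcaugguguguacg
mmu-miR-758-5p: uGGUUGACcagagagcacacg
mmu-miR-453: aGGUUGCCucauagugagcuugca
mmu-miR-496a-5p: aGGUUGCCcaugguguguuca
mmu-miR-494-5p: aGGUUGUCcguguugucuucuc
mmu-miR-410-5p: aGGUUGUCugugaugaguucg
mmu-miR-376c-5p: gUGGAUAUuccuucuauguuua
mmu-miR-376b-5p: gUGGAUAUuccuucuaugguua

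Further arms belong to precursors whose values the account below turns on, and include 2 pairs that are close in sequence but not in seed.
mmu-miR-376b-3p: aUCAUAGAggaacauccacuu
mmu-miR-376a-3p: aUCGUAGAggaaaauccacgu
mmu-miR-300-3p: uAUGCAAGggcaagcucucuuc
mmu-miR-381-3p: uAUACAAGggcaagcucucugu
mmu-miR-543-3p: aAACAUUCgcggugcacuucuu
mmu-miR-654-3p: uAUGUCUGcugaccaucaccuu
mmu-miR-382-5p: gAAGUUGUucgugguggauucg
mmu-miR-409-3p: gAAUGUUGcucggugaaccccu
mmu-miR-299a-5p: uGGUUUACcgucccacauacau
Counted from 1 at the 5′ end, miR-376a-3p differs from miR-376b-3p by A4G, C13A and U20G. miR-381-3p differs from miR-300-3p by G4A, U21G and C22U. In each pair the change at position 4 lies within the seed.

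Before the members' values, the arrays were checked. The deposited log2 values of the 10 lungs correlated at 0.984 to 0.995 over genes, and array medians lay between 7.43 and 7.46. The targeted gene, Hdac3, read 10.57, 10.54, 10.61, 10.34 and 10.43 in knockout lungs 1 to 5, against 10.80, 10.90, 10.80, 10.67 and 10.90 in control lungs 1 to 5. All knockout values were below all control values, with a log2 difference of -0.31 ± 0.07 (SE), a fold of 0.804 and a limma adjusted p of 0.0203, with a two-sided exact permutation p of 0.00794, the smallest that 252 assignments allow. In this Hdac3 check, leaving out control 2 or control 5 took limma's adjusted p to 0.0526 or 0.0545. Of 11 lung epithelial markers, 11 were measured and 0 were called, beside 3.12% of all genes called in either direction. Their mean level was 11.10 to 11.28 in knockout lungs and 11.13 to 11.18 in control lungs. That mean covers opposite shifts, with log2 differences of -0.48 for Sftpa1 and 0.47 for Aqp5. Their limma adjusted p values were 0.0899 and 0.115, and Cdh1 differed by 0.18 (adjusted p = 0.0517). Markers of mesenchyme, endothelium, leukocytes, red cells, neurons and glia, and muscle gave 0 calls too, red cells resting on 1 of 6 markers. At that share, lists this short readily give 0 calls, so these counts do not show unchanged cell types. The neuron and glia list, of which 7 of 10 were measured, averaged 6.74 to 6.90 in knockout lungs and 6.63 to 6.79 in control lungs, with 1 marker below the 20th percentile of all values. Lung knockout 5 stood apart on the sex-linked genes, with low Xist (4.96) and low Uty (4.53). Knockout 1 and control 1 had high Xist (11.47 and 11.21) and low Uty, and the other 7 lungs had low Xist and high Uty. Without knockout 5, the members' counts and median given below became 29 called, 30 without overlap and a median of 0.88.

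The precursors of the cluster were higher in the knockout lungs along nearly its whole length. All 32 had a higher knockout mean, and 30 had every knockout lung above every control lung; among all genes 2.44% did. In 0 members was every knockout lung below every control lung, which held for 2.66% of all genes. The median log2 change (knockout minus control) was 0.85, with quartiles at 0.69 and 1.19, against 0.00 over all genes. Values ran from 0.05 for Mir299a to 1.64 for Mir376b. By limma, at a Benjamini-Hochberg adjusted p under 0.05 over the whole table, 29 of 32 members were called higher and 0 lower, beside 1.54% of all genes called higher and 3.12% called in either direction. The members were chosen from this contrast, so these counts say only how large the set's known difference was. A log2 change of at least 1 was reached by 13 members and by 27 genes in all, 0.151% of those measured. Ranked by change, 12 members stood among the first 25 genes, 22 among the first 50 and 26 among the first 100.

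**Figure D1:**
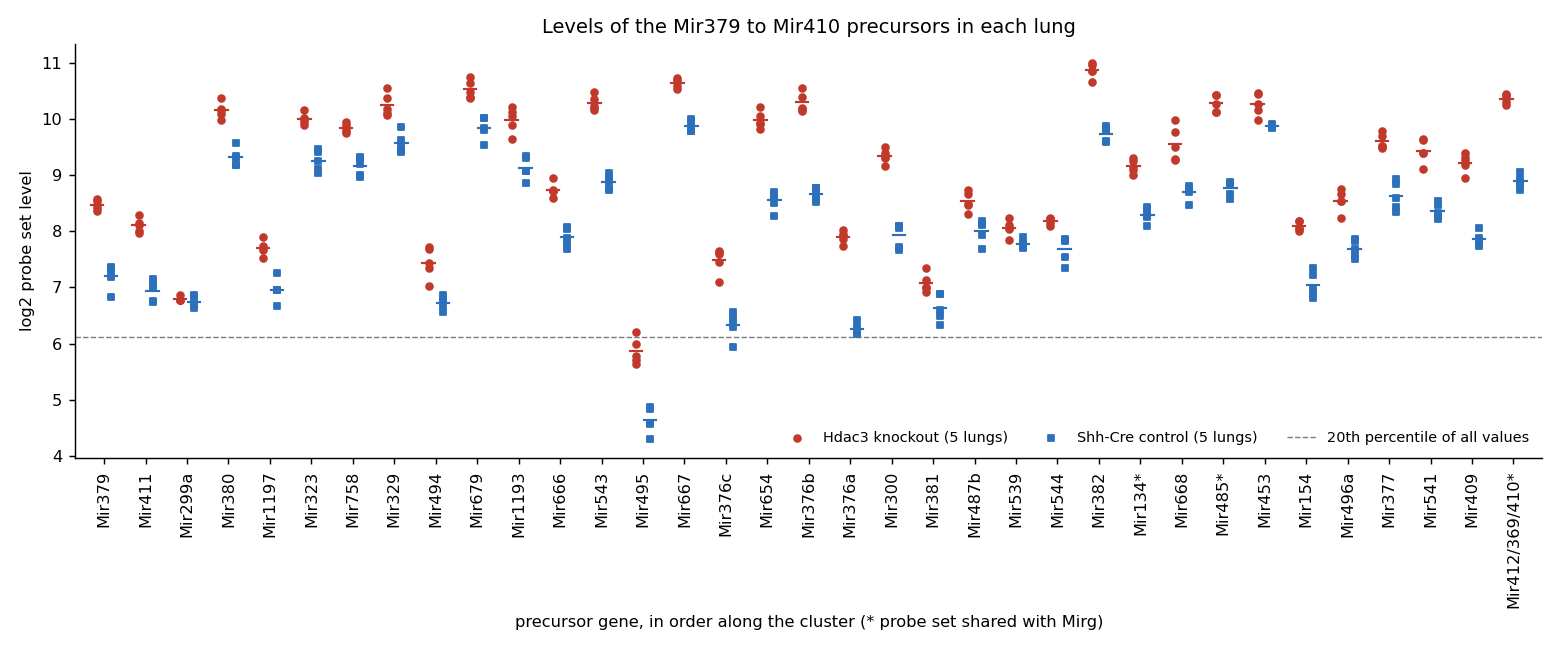
Log2 probe set level (vertical axis) of each precursor in gene order along the cluster (horizontal axis), with one point per lung, knockout left of control, a bar at each group mean and a dashed line at the 20th percentile of all values; starred names share their probe set with Mirg. Knockout points lie above control points without overlap for every single-name precursor except Mir299a and Mir539, and Mir495 is the one whose mean lies below the dashed line.

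Mir376b and Mir376a had the largest changes of the 32 members. Hairpins of the Mir376 family are known as substrates of RNA editing in the mouse brain. Mir376b read 10.17, 10.55, 10.39, 10.15 and 10.19 in knockout lungs 1 to 5, against 8.77, 8.55, 8.66, 8.77 and 8.52 in control lungs 1 to 5. The groups were separated by a gap of 1.37, with knockout 2 highest and control 5 lowest. The mean was 10.29 ± 0.17 in knockout lungs and 8.65 ± 0.12 in control lungs (SD, n = 5 each), a log2 change of 1.64 ± 0.09 (SE) or 3.11-fold. Mir376a read 7.94, 8.02, 7.86, 7.74 and 7.91 in knockout lungs, against 6.42, 6.23, 6.17, 6.21 and 6.29 in control lungs. Each group of Mir376a was tight and the 2 were far apart, with a change of 1.63 ± 0.06 or 3.09-fold. Mir376c, whose 5′ arm shares the seed of miR-376b-5p, averaged 7.49 ± 0.23 in knockout lungs and 6.33 ± 0.24 in control lungs, without overlap and with a change of 1.16 ± 0.13.

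The members' sequences were compared for runs long enough for 1 probe to read 2 genes. The array's probes are 25 bases long, and of 630 pairs of cluster hairpins 1 shares a run of at least that length: Mir376b and Mir376c share 31 bases. Their hairpins are shown with that run in capitals, Mir376b from chr12:109723458-109723539 and Mir376c from chr12:109722718-109722803, both on the plus strand.
Mir376b: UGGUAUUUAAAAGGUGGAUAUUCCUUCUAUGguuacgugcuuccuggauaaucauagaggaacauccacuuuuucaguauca
Mir376c: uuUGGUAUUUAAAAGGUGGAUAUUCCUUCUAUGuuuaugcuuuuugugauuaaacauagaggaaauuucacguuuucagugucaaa
The next longest runs were 21 bases between Mir411 and Mir758 and 20 between Mir376b and Mir487b, and 4 pairs shared 16 or more. The probes' own sequences were not used here, so the values of Mir376b and Mir376c are uncertain to the extent that their probes fall in the shared run.

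Mir543 and Mir654 lie in the same stretch as these genes and were also among the most changed. Mir543, whose product tunes N-cadherin in the developing mouse cortex, read 10.18, 10.48, 10.35, 10.15 and 10.23 in knockout lungs and 8.94, 8.90, 8.73, 9.03 and 8.76 in control lungs. Its lowest knockout lung, number 4, lay 1.12 above its highest control lung, also number 4, and the change was 1.41 ± 0.08 or 2.65-fold. Mir654 read 9.91, 10.21, 10.06, 9.83 and 9.92 in knockout lungs and 8.63, 8.63, 8.51, 8.70 and 8.28 in control lungs. It was again lowest in knockout 4 within its group, without overlap, and the change was 1.44 ± 0.09 or 2.71-fold. Mir300 read 9.39, 9.50, 9.31, 9.15 and 9.31 in knockout lungs and 8.06, 7.67, 7.71, 8.09 and 8.09 in control lungs. Its control lungs fell into a lower pair, 2 and 3, and 3 higher ones, all well under the knockout lungs, with a change of 1.41 ± 0.10 or 2.65-fold.

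Mir300 and Mir381 had similar 3′ arms and unlike changes. They are neighbours whose starts are 2.509 kb apart, and their 3′ arms differ at 3 of 22 bases. Mir381 read 7.13, 7.01, 7.34, 6.92 and 6.99 in knockout lungs and 6.88, 6.88, 6.60, 6.49 and 6.34 in control lungs. The groups of Mir381 just failed to touch, by 0.04, and its change was 0.44 ± 0.11 against 1.41 for Mir300. Members were chosen from this contrast, so their calls only describe it. Mir381 was not called in the fit without pairing but was called in the fit with same-numbered lungs as a block. In that fit 30 members were called higher, beside 2.28% of all genes called higher and 4.72% called either way. The step of -0.97 from Mir300 to Mir381 was the second largest between adjacent measured members.

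At the upstream end, Mir379 and Mir411 carry 3′ arms with the same seed that differ by U10C and U22C. Mir379 read 8.56, 8.54, 8.41, 8.37 and 8.47 in knockout lungs and 7.36, 7.34, 6.82, 7.19 and 7.29 in control lungs. The groups did not overlap, the knockout lungs were close together, control 3 was the lowest lung, and the change was 1.27 ± 0.09 or 2.41-fold. Mir411 read 8.10, 8.15, 8.01, 7.98 and 8.29 in knockout lungs and 7.15, 6.98, 6.76, 6.75 and 7.04 in control lungs. Here too the groups did not meet, and the change of 1.17 ± 0.09 or 2.25-fold was close to that of Mir379.

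The next gene downstream, Mir299a, was the exception in the cluster. It read 6.77, 6.86, 6.78, 6.78 and 6.78 in knockout lungs and 6.87, 6.63, 6.70, 6.69 and 6.82 in control lungs. The groups overlapped, knockout was higher in 3 of 5 same-numbered pairs, and the change was 0.05 ± 0.05. The step of -1.12 from Mir411 to Mir299a, over 0.463 kb, was the largest between adjacent members. RefSeq places Mir299a on the plus strand and a further gene, Mir299b, on the minus strand over the same hairpin, with mmu-miR-299b-3p at chr12:109710645-109710662. In the array's numbering of probe sets, for each of the other 31 members 0 of the 40 nearest probe sets with a known strand name minus-strand genes, and for Mir299a 34 of 40 do. The part of strand in the Mir299a value was not tested. A second probe set naming Mir409 lies in the same range of numbers, and it read 5.56 ± 0.19 in knockout lungs and 5.09 ± 0.10 in control lungs, without overlap. Both means lay below the 20th percentile of all values, so the size of its change was not set against that of the Mir409 probe set used for the member.

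Between Mir299a and Mir543 the changes were even. The 9 precursors from Mir380 to Mir666, over 5.3 kb between first and last start, had changes from 0.68 (Mir329) to 0.85 (Mir1193). Mir1193, which shares a seed with Mir379, averaged 9.98 ± 0.22 in knockout lungs and 9.13 ± 0.20 in control lungs. Mir1197 and Mir758, the 2 genes with the seed GGUUGAC, changed by 0.75 and 0.68. Mir494, whose 5′ arm shares its seed with that of Mir410, averaged 7.44 ± 0.28 in knockout lungs and 6.73 ± 0.12 in control lungs. All 9 had no overlap between the groups. Only 0.155 kb separates the start of Mir666, with a change of 0.85, from that of Mir543, with 1.41.

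The 8 precursors from Mir543 to Mir300 had the highest median change of the stretches, 1.41, with a range from 0.77 to 1.64. Mir667 was lowest in this stretch. It read 10.59, 10.69, 10.65, 10.54 and 10.73 in knockout lungs and 9.94, 9.78, 9.78, 10.002 and 9.82 in control lungs, with little spread in either group and a change of 0.77 ± 0.06 or 1.71-fold. Mir495 was the single member with a mean below the 20th percentile of all values, 6.11. It read 5.64, 6.00, 5.71, 5.78 and 6.20 in knockout lungs and 4.85, 4.88, 4.57, 4.31 and 4.58 in control lungs. Its groups did not overlap and its change was 1.23 ± 0.13, but with values raised to that percentile the change was 0.02.

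The 4 precursors from Mir381 to Mir544 changed least as a stretch, from 0.28 to 0.52. Mir539 read 7.84, 8.11, 8.05, 8.05 and 8.23 in knockout lungs and 7.90, 7.73, 7.78, 7.80 and 7.71 in control lungs. Knockout 1 lay below control 1, so the groups overlapped, and the change was 0.28 ± 0.07, not called. Mir487b and Mir544 were called and changed by 0.52 ± 0.10 and 0.50 ± 0.09. Mir299a, Mir381 and Mir539 are the 3 members not called. These calls, too, only describe a contrast from which the members were chosen.

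The distal stretch, 8 precursors from Mir382 to Mir409, had a median change of 1.01 and reached from 0.39 to 1.35. Mir382, the member with the highest level, read 10.86, 10.995, 10.95, 10.65 and 10.85 in knockout lungs and 9.80, 9.58, 9.60, 9.82 and 9.88 in control lungs. Every knockout lung was at least 0.78 above every control lung, and the change was 1.12 ± 0.08 or 2.18-fold. Mir453 was the low point of the stretch. It read 10.26, 10.46, 10.44, 9.97 and 10.15 in knockout lungs and 9.83, 9.91, 9.85, 9.86 and 9.87 in control lungs, where all 5 lay within a narrow band. Knockout 4 came within 0.06 of the highest control, and the change was 0.39 ± 0.08, against 0.85 for Mir496a, which shares its seed.

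Mir154 lies next to Mir453 and is known to respond to TGF-beta in human lung fibroblasts. It read 8.04, 8.05, 8.18, 8.17 and 8.01 in knockout lungs and 7.23, 7.34, 6.89, 6.98 and 6.81 in control lungs. The groups did not meet, with controls 1 and 2 the highest controls, and the change was 1.04 ± 0.09 or 2.06-fold. Mir541 read 9.39, 9.64, 9.61, 9.11 and 9.39 in knockout lungs and 8.54, 8.46, 8.22, 8.32 and 8.25 in control lungs. Knockout 4 was its lowest knockout lung and was still above control 1, its highest control lung, and the change was 1.07 ± 0.10 or 2.10-fold. Mir409, the last member with a probe set of its own, makes a microRNA that represses Lmo4 in mouse corticospinal neurons. It read 9.26, 9.32, 9.39, 8.94 and 9.18 in knockout lungs and 8.06, 7.82, 7.88, 7.83 and 7.74 in control lungs, without overlap and with a change of 1.35 ± 0.09 or 2.55-fold.

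**Figure D2:**
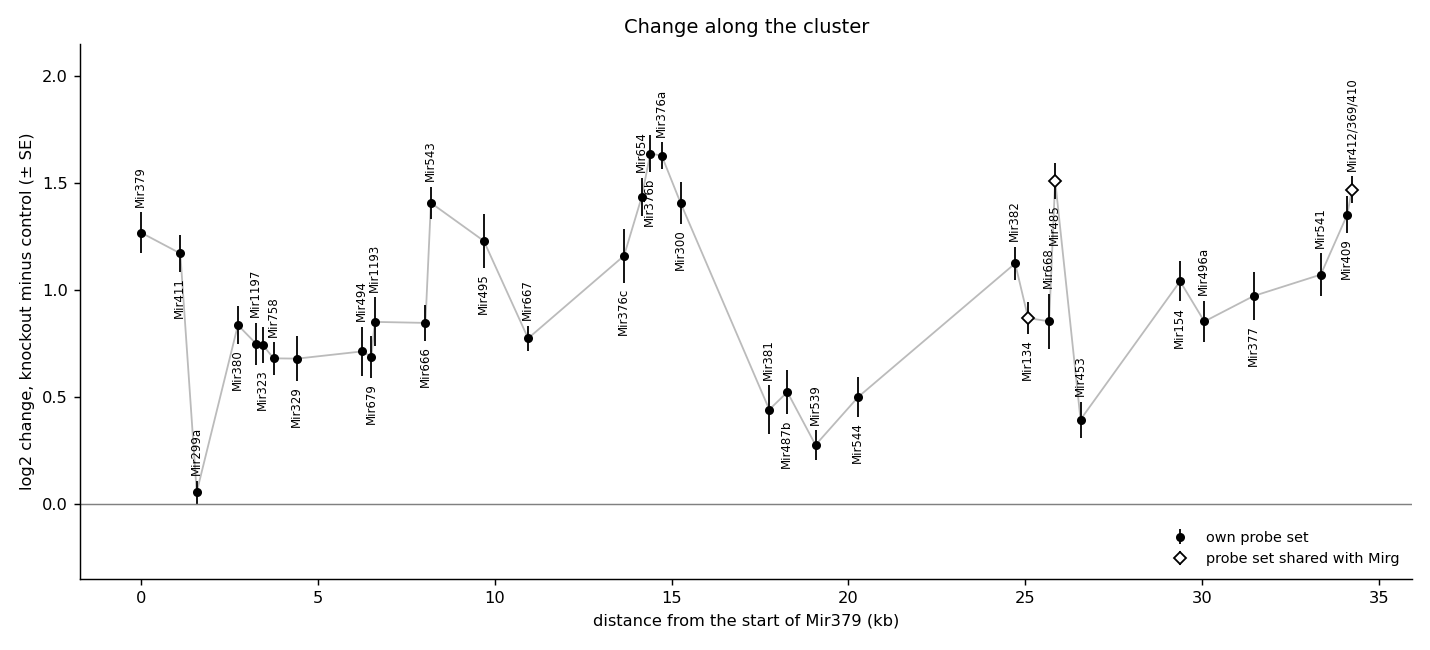
Log2 change, knockout minus control, with its standard error (vertical axis), against distance from the start of Mir379 in kb (horizontal axis); filled circles are precursors with a probe set of their own and open diamonds are probe sets shared with Mirg. The changes form stretches, highest around the Mir376 family near 1.64 and low at Mir299a (0.05) and from Mir381 to Mir544 (0.28 to 0.52).

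The 5 genes without a probe set of their own were read together with Mirg, the noncoding RNA annotated at this end of the cluster, and cannot be told apart from it. The probe set naming Mir134 and Mirg averaged 9.15 ± 0.12 in knockout lungs and 8.29 ± 0.13 in control lungs, a change of 0.87 ± 0.07. miR-134 is known to limit dendritic spine size in rat hippocampal neurons. The probe set naming Mir485 and Mirg averaged 10.27 ± 0.16 in knockout lungs and 8.76 ± 0.14 in control lungs, a change of 1.51 ± 0.08. The probe set naming Mirg, Mir412, Mir369 and Mir410 read 10.25, 10.44, 10.42, 10.30 and 10.36 in knockout lungs and 8.87, 8.73, 8.84, 9.05 and 8.93 in control lungs. All 3 shared probe sets had groups without overlap, and the last had a change of 1.47 ± 0.06 or 2.77-fold.

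RefSeq starts Mirg inside the cluster, and the window around its start holds the hairpins of 2 members, both before the annotated start. The 300 bases at chr12:109734731-109735030 on the plus strand are shown for that reason, with the hairpins of Mir668 (bases 2 to 67) and Mir485 (bases 172 to 244) in capitals.
Mirg start: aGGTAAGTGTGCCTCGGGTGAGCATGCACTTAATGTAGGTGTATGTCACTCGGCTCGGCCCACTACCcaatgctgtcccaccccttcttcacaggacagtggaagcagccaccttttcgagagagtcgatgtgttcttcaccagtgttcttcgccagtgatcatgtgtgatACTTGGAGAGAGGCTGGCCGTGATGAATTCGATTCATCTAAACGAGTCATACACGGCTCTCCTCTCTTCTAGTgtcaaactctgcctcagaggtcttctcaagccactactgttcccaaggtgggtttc
The 2 hairpins lie within 1 window, yet the probe set of Mir668 changed by 0.85 ± 0.13, with means of 9.56 ± 0.31 in knockout lungs and 8.70 ± 0.14 in control lungs, while the Mir485 probe set had a change of 1.51.

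Adjacent members differed less in change than members in general. The median absolute difference in log2 change was 0.20 over 31 adjacent pairs and 0.39 over all 496 pairs. The bounds of the stretches above were drawn after the changes were seen, and neighbouring probe sets may read the same transcripts. The change correlated with gene order at r = 0.10 and rho = 0.13 over 32 members. It correlated with the level in control lungs at r = -0.14 and rho = -0.16 over 32 members, and with the GC content of the hairpin at r = -0.19 and rho = -0.18 over the 30 with a hairpin sequence. The level in control lungs correlated with the GC content of the hairpin at r = 0.61 and rho = 0.61 over the same 30. The part of base composition in the members' levels was not tested. Members share lungs and arrays and may share transcripts, and these correlations are descriptions.

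Lung by lung, the members' mean level separated the groups. Averaged over the 32 members, the level was 8.95, 9.09, 9.02, 8.83 and 8.98 in knockout lungs 1 to 5, against 8.18, 8.09, 7.95, 8.10 and 7.96 in control lungs 1 to 5. The lowest knockout lung was well above the highest control lung. The mean was 8.97 ± 0.10 in knockout lungs and 8.06 ± 0.10 in control lungs (SD, n = 5 each), a difference of 0.92. Knockout 2 was the highest knockout lung for 18 members and knockout 4 the lowest for 23. Among controls, control 1 was the highest for 17 members, and control 5 and control 3 were the lowest for 14 and 11.

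Between 30 and 31 members lay above all control lungs in each knockout lung. Same-numbered lungs differed by 0.76, 1.00, 1.08, 0.72 and 1.02 in pairs 1 to 5, with 30, 32, 32, 32 and 31 members higher in the knockout. Numbers 1 to 3 and numbers 4 and 5 were also taken apart, since they differed in level in both groups for Mir665 of the same domain. The median change of the members was 0.91 within numbers 1 to 3 and 0.83 within numbers 4 and 5. The spread between lungs of 1 group was wider for the members than over all genes, with a median SD of 0.142 in knockout lungs and 0.166 in control lungs, against 0.104 in knockout lungs and 0.0984 in control lungs over all genes. It was not particular to the cluster. The 240 microRNA precursors measured outside the domain had median SDs of 0.1575 in knockout lungs and 0.161 in control lungs.

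**Figure D3:**
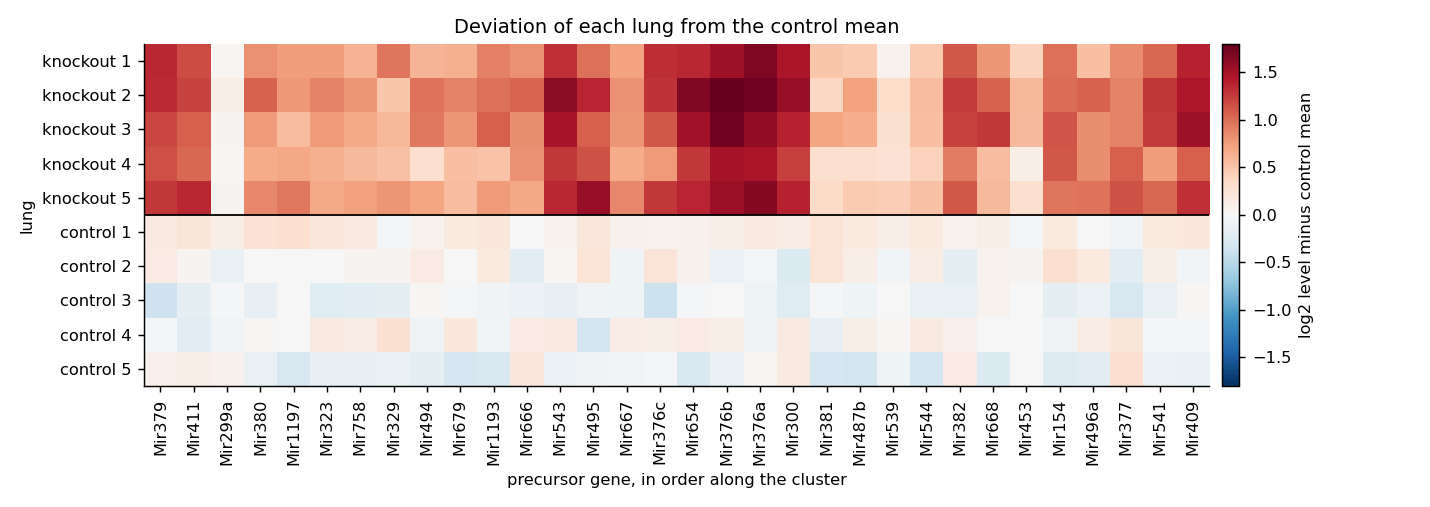
Deviation of each lung (rows, knockout above control) from the control mean of each precursor (columns, in gene order), as a difference of log2 levels on the colour scale. Knockout 4 is the palest knockout row, with a mean deviation of 0.77, and Mir299a is the palest column, with a change of 0.05.

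Outside the cluster but inside the same imprinted domain, most measured microRNA precursors and Rian rose as well. The maternally expressed Meg3 was not called on its own probe set. Of the paternally expressed genes measured, Dlk1 and Dio3, neither was called. Dio3 lay below the 20th percentile of all values, where a change could hardly be read. Of 30 other domain genes listed, 20 were measured, 9 were called higher and 0 lower, beside 1.54% and 1.58% of all genes. Their median change was 0.41. The list also holds flanking genes, Begain and Wdr25 before Dlk1 and Ppp2r5c and Dync1h1 beyond Dio3. These changed by 0.08, 0.03, -0.07 and -0.01, were not called, and count among the 20. The count of 9 became 5 without control 3, control 4, knockout 2 or knockout 3, and 7 with values raised to the 20th percentile. With same-numbered lungs as a block it became 11, beside 2.28% of all genes called higher. Rian, a maternally expressed noncoding RNA that hosts small nucleolar RNAs, read 11.82, 11.88, 11.91, 11.92 and 11.82 in knockout lungs and 11.58, 11.41, 11.46, 11.63 and 11.46 in control lungs. All its knockout values were above all control values, but the change, 0.36 ± 0.05 with a limma adjusted p of 0.00222, was smaller in size than that of every cluster member except Mir299a and Mir539.

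Of the 11 measured domain precursors that lie before Mir379, 8 were called higher, beside 1.54% of all genes, with a median change of 0.65. One of the 8, Mir882, had a mean below the 20th percentile, and with values raised to that percentile the Mir3070a log2 change was no longer called (adjusted p = 0.0587). Mir341, next to Rian in gene order, averaged 11.06 ± 0.08 in knockout lungs and 10.42 ± 0.14 in control lungs, a change of 0.63 with an adjusted p of 0.000326 by limma. Mir3070b changed by 1.09 (adjusted p = 0.00222), Mir1188 by 0.65 (adjusted p = 0.00293) and Mir370 by 0.58 (adjusted p = 0.00663). The calls of Mir493, Mir540, Mir3070a and Mir882 were lost on leaving out single lungs, with adjusted p values then reaching 0.0872, 0.0786, 0.112 and 0.094. The lungs were controls 2 to 4 or knockouts 1 to 3 for Mir493, controls 2 to 5 or knockouts 1 to 3 for Mir540, controls 1, 3, 4 and 5 or knockouts 1 to 3 for Mir3070a, and controls 2 to 5 or knockouts 2 to 4 for Mir882. Mir665 read 10.23, 10.25, 10.16, 9.70 and 9.65 in knockout lungs and 9.67, 9.55, 9.50, 9.12 and 8.80 in control lungs. In both groups numbers 4 and 5 were its lowest lungs, the groups overlapped, and its change of 0.67 had an adjusted p of 0.0653, and of 0.000478 with the block. Mir337, with a change of 0.64, likewise had an adjusted p of 0.0519, and of 0.00213 with the block. Lungs of 1 group spread more widely for these 11 than for the cluster, with a median SD of 0.254 in knockout lungs and 0.252 in control lungs.

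Meg3, the first noncoding RNA of the maternal transcripts, had a dim probe set of its own with means of 6.90 in knockout lungs and 6.78 in control lungs (change 0.12, adjusted p = 0.608). Like that of Mir299a, this probe set has 34 of its 40 nearest probe sets naming minus-strand genes. The brighter probe set naming Meg3 and Mir770 averaged 11.52 ± 0.10 in knockout lungs and 11.35 ± 0.03 in control lungs, with overlap. A further probe set, naming Meg3, Mir1906-1 and Mir1906-2, averaged 11.14 ± 0.08 in knockout lungs and 10.85 ± 0.04 in control lungs, without overlap and with a change of 0.29 ± 0.05. Dlk1, a transmembrane protein of the Notch ligand family, averaged 11.30 ± 0.10 in knockout lungs and 11.36 ± 0.08 in control lungs (change -0.06, adjusted p = 0.740). Dio3, which inactivates thyroid hormone, averaged 5.40 in knockout lungs and 5.41 in control lungs (change -0.01, adjusted p = 0.971), near the bottom of the scale. Rtl1 had no probe set of its own.

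**Figure D4:**
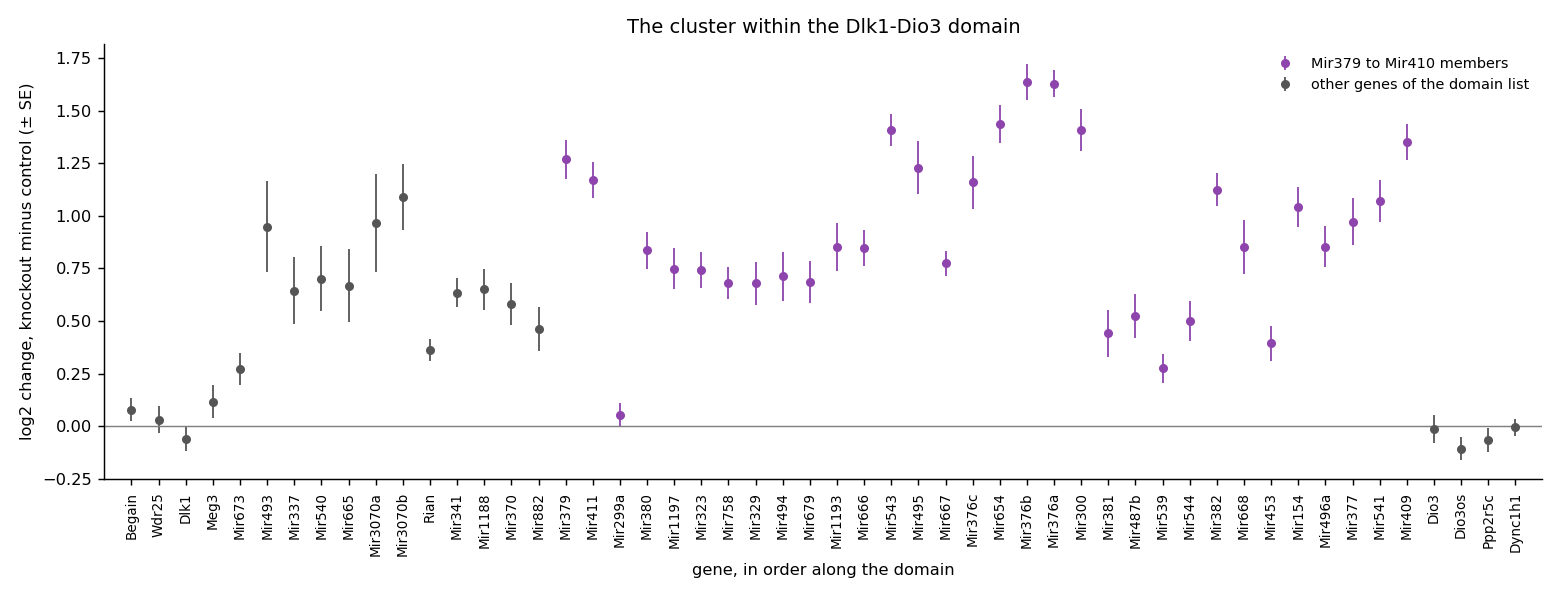
Log2 change, knockout minus control, with its standard error (vertical axis), for the measured genes of the Dlk1-Dio3 domain and its flanks in order (horizontal axis), with cluster members in purple and other listed genes in grey. The precursors and Rian lie above 0. Dlk1 (-0.06) and Dio3 (-0.01) lie near it, and Meg3 lies at 0.12.

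Elsewhere in the genome, microRNA genes were called in both directions, in the fit without pairs at close to the share of all genes. Of 243 genes with microRNA names outside the domain, of which 3 are host genes, 5 were called higher and 2 lower, with a median change of 0.03, beside 3.12% of all genes called in either direction. With same-numbered lungs as a block these became 16 higher and 5 lower, beside 4.72% of all genes. Leaving out 1 lung moved the count of 7 to between 4 (without control 1, 2 or 4 or knockout 2) and 12 (without knockout 4). The called ones included Mir20a, a member of the Mir17-92 polycistron, at 5.71 ± 0.15 in knockout lungs and 5.12 ± 0.12 in control lungs (change 0.59, limma adjusted p = 0.00112), with both means below the 20th percentile of all values, 6.11. Mir200c, an epithelial microRNA, changed by 0.59 (adjusted p = 0.0204), with a control mean of 6.14, close to that percentile. Mir31, Mir298 and Mir1931 were also called higher, with changes of 0.51, 0.38 and 0.33. Mir298 had both means, and Mir31 its control mean, below that percentile. The 2 called lower were Mir5124a, with a change of -0.69 (limma adjusted p = 0.000439), and Mir140, with -0.46 (adjusted p = 0.0354). Among 15 genes outside the cluster whose mature microRNA has a seed found in it, 5 were measured. Of these, Mir370 of the same domain was called, and the range of the 5 changes was -0.16 to 0.58.

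**Figure D5:**
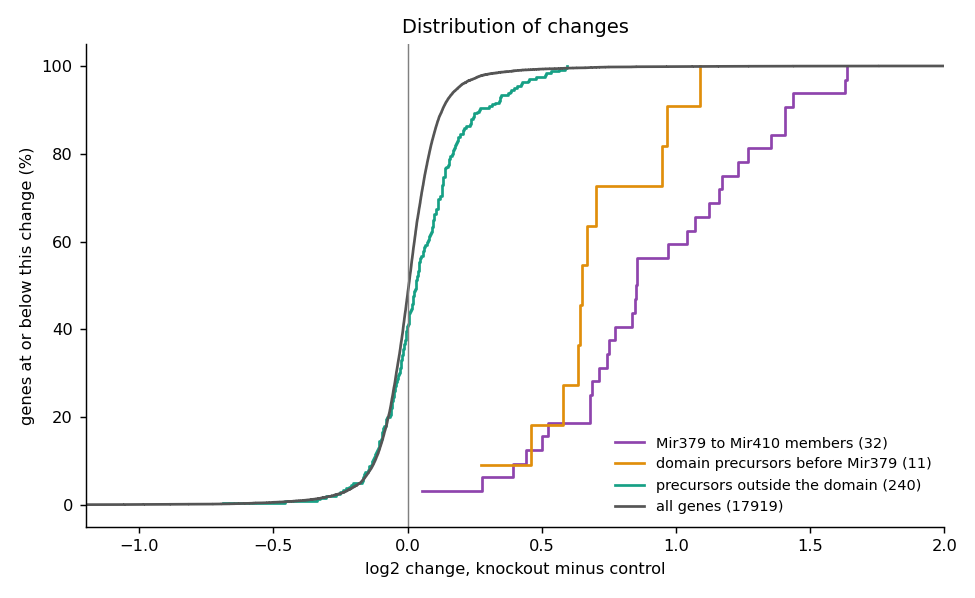
Cumulative share of genes in percent (vertical axis) at or below each log2 change, knockout minus control (horizontal axis), for the 32 members, the 11 domain precursors before Mir379, the 240 outside genes that RefSeq types as microRNAs and all 17919 genes. The members' curve lies wholly above 0 with a median of 0.85, against medians of 0.65 for the domain precursors, 0.03 for outside microRNAs and 0.00 for all genes.

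The machinery that makes microRNAs from such precursors was read from a list of 17 genes. Of these, 14 were measured, 1 was called higher and 0 lower, beside 1.54% and 1.58% of all genes. A count from so few genes says little beside those shares. That gene was Tnrc6a, a partner of Argonaute proteins, at 9.97 ± 0.07 in knockout lungs and 9.77 in control lungs (change 0.20, limma adjusted p = 0.0481). Drosha and Dicer1, the nucleases that cut primary transcripts and precursors, had changes of 0.03 and 0.02, neither called. The Argonaute genes Ago1 and Ago4 both changed by -0.20, and Ago2 and Ago3 by 0.01 and 0.01, none called. Of 22 listed regulators of imprints and of the cluster's transcription, 20 were measured. Of these, 0 were called higher and 1 lower, beside 1.54% and 1.58% of all genes. This count, too, comes from few genes and says little beside those shares. Jarid2, a cofactor of the Polycomb complex that methylates histone H3, averaged 9.57 in knockout lungs and 9.77 in control lungs (change -0.20, adjusted p = 0.0429, and 0.0585 with same-numbered lungs as a block). The calls of Tnrc6a and Jarid2 were each lost on leaving out any 1 lung other than knockout 5. Mef2a and Mef2d, of the family that drives the cluster in rat neurons, had changes of -0.06 and 0.18, not called, and Mef2d was called with the block (adjusted p = 0.0470).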

How the data were processed

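The authors deposited 1 log2 level per probe set and lung. The submitters' processing notes name oligo, RMA and limma without versions; array build and row filters: not given in the sources used here. In the platform annotation, 18922 of 24888 probe sets carried 1 symbol, 1343 several and 4623 none; 18790 matched RefSeq by gene ID. Of several single-symbol probe sets, a gene was given the one with the highest mean over 10 lungs.

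Knockout was compared with control by limma 3.58.1 (R 4.3.3, lmFit and eBayes, two-sided, Benjamini-Hochberg over 17919 genes), tested on simulated data. Members, lists, alternatives and the naming rule were chosen with earlier results of these data known. The rule gave values per lung for the 12 called members with the smallest p and for the first, the last and the highest measured member. Mir299a, Mir381, Mir453, Mir495, Mir539, Mir337, Mir665, Mir1193, Mir494, Mir668, Mir20a and Mir200c were named after their values were seen. So were Mir31, Mir298, Mir1931, Mir5124a and Mir140. Values outside the naming rule were also given for other members, among them Mir376c, Mir487b and Mir544. The same holds for Mir341, Mir370, Mir493, Mir540, Mir882, Mir1188, Mir3070a, Mir3070b and the flanking genes. It also holds for Drosha, Dicer1, the Argonaute genes, Mef2a, Mef2d, Sftpa1, Aqp5 and Cdh1.

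Replicate numbers 1 to 5 occur in both groups. The labels call the lungs biological replicates and do not explain the numbers. Same-numbered lungs deviated together from their group means (r = 0.319, 0.154, 0.183, 0.485 and 0.360, against -0.0829 as the median and 0.330 as the maximum over lungs of different numbers), and 7 of 10 lungs matched their own number best. These correlations ran over all genes, the sex-linked ones included. The number 1 lungs were alike in high Xist and low Uty, and the number 5 lungs differed in Uty (4.53 in knockout, 9.93 in control). The part of sex-linked genes in these values was not tested. All same-number values being above 0.1, a fit with the numbers as pairs is given where it changes a call. Other calls come from the fit without pairs. The number of arrays limits the precision.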

Additional observations from a re-analysis of the deposited data

Results flagged for a closer look

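In 2 of 120 groups of 5 lungs, 1 lung lay far from the other 4, where chance alone marks about 1 in 20 groups. Mir299a in knockout 2 read 6.861, against 6.772 to 6.785 in the other knockout lungs. Dlk1 in control 4 read 11.5, against 11.31 to 11.35 in the other control lungs.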

How the results depend on the processing

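The members kept their positive changes under every alternative run: 0 reversed. With each lung left out in turn, 28 to 30 members were called and 30 to 31 had no overlap. The median change was 0.80 to 0.90 and the difference of lung means 0.89 to 0.95. Since the members were chosen from this contrast, these figures describe how steady a known difference was and do not test it. Left-out lungs gave 393 to 699 called genes, 5 to 10 other domain genes, 4 to 12 outside microRNA genes (lowest without control 1, highest without knockout 4) and an Hdac3 change of -0.35 to -0.28 (adjusted p 0.0142 to 0.0545, limma). The domain count was 5 without control 3, control 4, knockout 2 or knockout 3, and the outside count was 4 without control 1, 2 or 4 or knockout 2. With the replicate block, 846 genes, 11 other domain genes and 21 outside microRNA genes were called. Of the genes named, the block changed the calls of Mir381, Mir337, Mir665, Jarid2 and Mef2d and no other. Among genes above the median level, 2 outside microRNA genes were called. In the Hdac3 check, the change within numbers 1 to 3 was -0.26 (adjusted p = 0.0629). Within numbers 4 and 5, with 2 lungs a group, 1 member, 2 genes in all, 0 other domain genes and 0 outside microRNA genes were called, and the Hdac3 check gave -0.40 (adjusted p = 0.421). Fewer lungs were tested there. Using every probe set, 30 of 33 member probe sets were called. Without the Mir299a probe set, an alternative chosen after seeing the data, the median was 0.85 and the difference of lung means 0.95. Mir495 lies below the floor set for dim probes, and its size of change is limited by that.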
